A study of Mus musculus with 18 samples.

Results

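The comparison described here is the difference between Kdm7a-deficient and control cells in their response to M1 stimulation, measured in RAW264.7, a macrophage-like cell line of the mouse. For each gene the change from unstimulated to M1 libraries in control cells was subtracted from the same change in Kdm7a-deficient cells. It uses 12 of the 18 libraries of the series, 3 in each of 4 groups, and every gene passing a filter on low values is a member: 11548 of the 24411 gene symbols in the table. Control cells had received a control guide RNA, and Kdm7a-deficient (KO) cells came from a line made with CRISPR/Cas9 and a guide RNA. Both were kept for 48 h, either without stimulation (M0) or with mouse interferon gamma at 2 ng/ml and the bacterial cell wall component lipopolysaccharide (LPS) at 0.1 µg/ml (M1). The remaining 6 libraries came from M2 conditions, that is, with interleukin 4, interleukin 10 and interleukin 13 (20 ng/ml each) plus human TGF-beta 1 (2 ng/ml). They entered the estimate of the spread and served for 1 comparison near the end. The labels name 1 line of each genotype and do not say whether the libraries of a group were separate cultures. The p-values therefore speak of the spread among these libraries, whose source may be technical. Other differences between the lines cannot be told apart from loss of Kdm7a. In bulk RNA, fewer cells that express a gene and less RNA per cell cannot be told apart either.

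KDM7A is a Jumonji-family demethylase that takes methyl groups off H3K9, H3K27 and H4K20, lysines in the tails of histones, where these groups go with silent or less active chromatin. Interferon gamma acts through STAT transcription factors and the interferon regulatory factors, and LPS acts through Toll-like receptor 4, which activates NF-kappaB and AP-1 and induces interferon beta. Together they give macrophages the M1 state, with nitric oxide synthesis, secretion of cytokines and chemokines, display of antigen and a stop in division. The transcripts of these programmes can be read one by one for how far each moved in either genotype.

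Values are TPM, the share of a gene's transcripts in a library scaled to a fixed total, so the depth of each library is unknown. The Kdm7a transcript, from chromosome 6 at 39136620 to 39206773 of the GRCm38 build, stood at 11.29, 11.03 and 10.96 TPM in unstimulated control libraries and at 3.33, 3.25 and 3.52 TPM in unstimulated KO libraries. Under M1 it stood at 30.32, 29.96 and 28.71 TPM in control cells and 7.66, 7.63 and 7.19 TPM in KO libraries. Every KO library was below every control library of its condition, and the transcript of the disrupted gene was still detected. Its level does not measure the protein that is left. Kdm7a rose with stimulation in both genotypes, by 1.34 log2 units in control and 0.96 in KO cells, a difference of -0.38 ± 0.10 (SE, limma adjusted p = 0.00429) that lost its call with a smaller pseudocount.

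All 10 macrophage markers sought were present, and their sum lay between 6773 and 8950 TPM in the 12 libraries. Of the T cell markers only Lck and Cd28, and of the B cell markers only Cd79a, reached 1 TPM in any of them, while Cd3e, Cd8a and Ms4a1 were at or near 0. Libraries of 1 group correlated across genes at r = 0.994 or more, and none stood apart by this measure. Of 7 fibroblast markers 3 reached 1 TPM in some library, and their sum was 0.10 to 0.48 TPM in the other groups and 0.78 to 5.11 TPM in KO M1 libraries. Their part in the results was not tested. The 10 most abundant genes took 6.74 to 7.09% of all TPM in unstimulated libraries, 10.9 to 11.0% in control M1 and 11.6 to 11.7% in KO M1 libraries. The most abundant genes thus took slightly more of the total in KO M1 libraries, and other scalings of the values are given below.

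Most genes answered M1 stimulation alike in both genotypes. Of the 11548 tested genes, 10290 (89.1%) changed in control cells and 10430 (90.3%) in KO cells (limma on log2(TPM + 1), Benjamini-Hochberg adjusted p below 0.05). Of these, 9705 changed in the same direction in both genotypes and 108 in opposite directions. None of the 108 moved 1.5-fold or more both ways. The difference between the responses was called for 4161 genes, 36% of those tested, with 1399 higher (12.1%) and 2762 lower (23.9%) in KO than in control cells. Throughout, "higher" and "lower" describe this difference of responses in log2(TPM + 1) units, and not the level itself. The shares of 12.1% and 23.9% are the background for every count of called list members below.

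Most of the called differences were small. Among called genes the median absolute difference was 0.36 log2 units, and 81.5% of them were under 1.5-fold. By 2-fold or more, 65 genes were higher (0.563% of those tested) and 96 lower (0.831%). The median of all tested genes was -0.07, with quartiles at -0.24 and 0.10 and a median SE of 0.09. The tilt to lower genes depended on the scaling of TPM and was nearly gone with median-ratio factors. The share of called genes that were higher was 33.6% as deposited, 44.4% with trimmed-mean (TMM) factors and 48.7% with median-ratio factors, under which the median of all genes was -0.03 and -0.01. Small negative medians of gene lists are best read against this shift of the median gene.

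**Figure D1:**
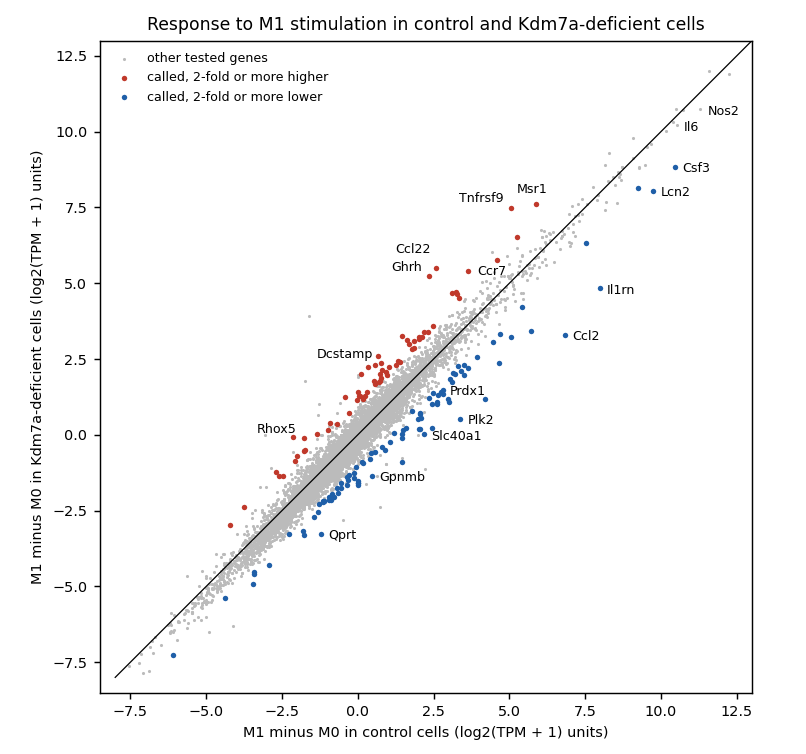
Each point is 1 of the 11548 tested genes, with its change from M0 to M1 in control cells on the x axis and in KO cells on the y axis, both in log2(TPM + 1) units. The line marks equal responses, most genes lie along it, and the coloured points are the 65 called genes at least 2-fold higher and the 96 at least 2-fold lower in KO cells.

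The monocyte chemokines gave the largest called difference downwards among genes reaching 5 TPM. Ccl2, on chromosome 11 at 82035577 to 82037452, encodes the ligand that draws CCR2-bearing monocytes, and it was listed at 0 in all unstimulated libraries of both genotypes. Under M1 it reached 107, 122 and 114 TPM in control libraries and 7.95, 10.1 and 8.64 TPM in KO libraries. The KO libraries lay far below the control libraries with no overlap, and the difference was -3.55 ± 0.18 (limma adjusted p = 4.84e-11). Its neighbour Ccl12, at 82101845 to 82103399 on the same chromosome, encodes a related monocyte chemokine and was also listed at 0 without stimulation. It reached 22.98, 24.6 and 25.4 TPM in control cells and 3.20, 5.03 and 4.34 TPM in KO libraries under M1, a difference of -2.30 ± 0.14 (adjusted p = 5.16e-10). Ccl7, another monocyte chemokine, chosen here after its values were seen, stood at 2.85, 3.8 and 7.56 TPM in control cells and 0.27, 0.29 and 0 TPM in KO libraries under M1 (difference -2.20 ± 0.28, adjusted p = 7.24e-06). All these monocyte chemokines were thus expressed in control M1 libraries and low in KO M1 libraries. How reads shared by these related genes were assigned is not given in the sources used here.

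Ccl22, on chromosome 8 at 94745684 to 94751388, moved the opposite way and gave the largest called difference upwards among genes reaching 5 TPM. It encodes a ligand of CCR4 that draws T cells and is made by dendritic cells and M2 macrophages. Unstimulated libraries held 0 TPM in control cells and 0, 0.05 and 0.12 TPM in KO cells. Under M1 the 3 control libraries stood at 4.24, 6.06 and 4.73 TPM and the KO libraries at 46.5, 48.3 and 47.5 TPM. Every KO M1 library was far above every control M1 library, and the difference was 2.94 ± 0.13 (adjusted p = 7.65e-12). Of 16 tested CC and CXC chemokine genes, 3 were higher, 5 were lower and 8 were not called, with a median difference of -0.20. The other higher ones were Ccl3, at 0.44, and Cxcl11, at 0.43, and the other lower ones Ccl6, at -0.75, and Cxcl9, at -0.56. Some chemokines with large levels under M1 were not called although their M1 libraries did not overlap between genotypes. Ccl5, an attractant of T cells and monocytes, stood at 15301, 15220 and 15345 TPM in control cells and 25507, 25317 and 25629 TPM in KO libraries under M1. Its unstimulated values lay from 3.37 to 6.75 TPM, and the difference was 0.42 ± 0.77 (adjusted p = 0.714). The SE also draws on the M2 libraries, which entered the estimate of the spread. Cxcl2, a neutrophil attractant, stood at 3325, 3265 and 3420 TPM in control cells and 1363, 1360 and 1423 TPM in KO libraries (difference -0.59 ± 0.36, adjusted p = 0.232). Ccl5 and Cxcl2 were chosen after their values were seen.

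Receptors for chemotactic signals moved in both directions. Ccr7, on chromosome 11 at 99144199 to 99155077, encodes the receptor that guides dendritic cells to lymph nodes and was listed at 0 in all unstimulated libraries of both genotypes. It reached 11.1, 11.0 and 12.04 TPM in control cells and 42.4, 37.8 and 42.8 TPM in KO libraries under M1. KO cells stood above control cells in each library, and the difference was 1.76 ± 0.11 (adjusted p = 4.92e-10). Ccr2, the receptor for the monocyte chemokines named above, fell with stimulation in both genotypes but less in KO cells. It went from 94.8, 104 and 105 TPM to 6.13, 6.93 and 6.93 TPM in control libraries and from 119.6, 132 and 125 TPM to 24.6, 22.5 and 22.4 TPM in KO libraries (difference 1.35 ± 0.07, adjusted p = 5.99e-11, chosen after its values were seen). The formyl peptide receptor genes, which sense bacterial peptides, went the other way. Fpr1 was listed at 0 without stimulation and reached 4.82, 4.91 and 5.79 TPM in control cells and 0.79, 1.27 and 1.10 TPM in KO libraries (difference -1.59 ± 0.14, adjusted p = 3.44e-08). Fpr2 reached 22.8, 25.7 and 25.5 TPM in control cells and 9.12, 9.15 and 8.80 TPM in KO libraries, with a difference of -1.35 ± 0.10. Of 16 tested chemotactic receptor genes 5 were higher and 4 lower, with a median of 0.25. Of 8 dendritic cell markers sought, Ccr7 among them, 4 reached 1 TPM in some of these libraries, and Flt3, Cd209a and Clec9a were at or near 0. Their summed level lay at 10.2 to 11.8 TPM in unstimulated control, 30.9 to 31.9 TPM in unstimulated KO, 15.9 to 17.5 TPM in control M1 and 43.0 to 49.2 TPM in KO M1 libraries. Different single genes made up most of this sum. Without stimulation it was almost that of Siglech, at 10.2 TPM in control and 29.9 TPM in KO cells, which was near 0 under M1. Under M1 it was mostly Ccr7, at 11.4 and 41 TPM, with Xcr1 at 4.99 and 5.37 TPM. The part of these markers in the result was not tested.

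Several genes of the interleukin 1 system differed. Il1rn, on chromosome 2 at 24336860 to 24351491, encodes the antagonist that occupies the IL-1 receptor without signalling. It was between 0.04 and 0.30 TPM in unstimulated libraries, and under M1 it rose to 331, 321 and 307 TPM in control cells and to 30.7, 27.9 and 30.6 TPM in KO libraries. The genotypes were separated by far more than the spread of either group, with a difference of -3.16 ± 0.11 (adjusted p = 1.67e-13). The agonist gene Il1b stood at 324, 352 and 334 TPM in control cells and 810.0, 796 and 812 TPM in KO libraries under M1, against 0 to 0.49 TPM without stimulation. Its difference was 0.99 ± 0.25 (adjusted p = 0.00579), a call lost with a pseudocount of 0.1 TPM, where the small unstimulated values weigh more and the difference was 0.07. Il1a, the other agonist, was higher by 0.46 ± 0.12 (adjusted p = 0.00388). Il1r2, which encodes the decoy receptor, was listed at 0 without stimulation and reached 0.64, 0.48 and 0.62 TPM in control cells and 4.97, 5.48 and 4.81 TPM in KO libraries (difference 1.95 ± 0.12, adjusted p = 4.92e-10). Of these 4 genes the antagonist was thus lower, and both agonists and the decoy receptor higher. Il18, a cytokine of the same family, was not called (0.34, adjusted p = 0.064).

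Among other secreted factors more were lower than higher, as among all tested genes (12.1% higher and 23.9% lower). Of 29 tested cytokine genes 6 were higher, 13 were lower and 10 were not called, with a median of -0.19. Thus 65.5% were called, against 36% of all genes. Csf3, which encodes the granulocyte growth factor G-CSF, stood at 1503, 1504 and 1557 TPM in control cells and 615, 600.3 and 629 TPM in KO libraries under M1 (difference -1.64 ± 0.28, adjusted p = 4.21e-04). Csf2, which encodes GM-CSF, was listed at 0 without stimulation and reached 19.3, 20.1 and 23.2 TPM in control cells and 7.20, 8.36 and 6.48 TPM in KO libraries (difference -1.39 ± 0.12). Both growth factor genes were thus induced in KO cells, to a lower level. Tnf, the tumour necrosis factor gene, stood near 73.7 TPM in control cells and 70.4 TPM in KO cells without stimulation, and at 2174, 2118 and 2150 TPM in control against 1559, 1518 and 1548 TPM in KO libraries under M1 (difference -0.41 ± 0.08, adjusted p = 6.71e-04). Ifnb1, the interferon beta gene, had a difference of -1.20 ± 0.19 (adjusted p = 6.94e-05), and Il27 and Il12b, subunits of cytokines that act on T cells, had differences of -1.10 and -0.79. Ebi3, whose product pairs with IL-27 p28, was higher at 0.82 ± 0.06 (adjusted p = 1.14e-08). Hbegf, an epidermal growth factor family ligand, and Vegfc, a ligand of lymphatic vessel growth, were lower at -1.77 ± 0.14 and -1.95 ± 0.14, and Vegfa, the blood vessel growth factor gene, was higher at 0.65 ± 0.06 (adjusted p = 1.47e-07). Csf2, Ifnb1, Il27, Il12b, Ebi3 and Il1a were chosen after their values were seen.

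Of 6 usual markers of the M1 state, Il1b was called higher and Tnf lower, as given above, Cd86 was called higher, and Nos2, Il6 and Cxcl10 were not called. Nos2, the inducible nitric oxide synthase gene, stood at 3625, 3577 and 3515 TPM in control cells and 3483, 3385 and 3471 TPM in KO libraries under M1. Its unstimulated values were 0.33 to 0.60 TPM and 0.72 to 1.75 TPM, and the difference of -0.56 ± 0.59 was not called (adjusted p = 0.495). Il6 stood at 1596, 1570.0 and 1484 TPM in control cells and 1614, 1611 and 1573 TPM in KO libraries, with a difference of -0.31 ± 0.37 (adjusted p = 0.555). Both genes stood at close M1 levels in the genotypes and near 0 without stimulation. The control M2 libraries, which entered the estimate of the spread, lay further apart on the log2 scale. They stood at 2.04, 5.24 and 0.23 TPM for Nos2 and 1.56, 1.46 and 0.09 TPM for Il6. Cxcl10, a chemokine induced by interferon, had a difference of 0.05 ± 0.12 (adjusted p = 0.768). Cd86, a costimulatory ligand for T cells, was lower in KO cells in both conditions, at 2.96, 3.04 and 2.99 TPM against 10.7, 12.2 and 12.3 TPM without stimulation and at 97.8, 102 and 101 TPM against 222, 226 and 210.0 TPM under M1. Its log2 difference of 0.55 ± 0.09 (adjusted p = 1.08e-04) thus describes a larger relative rise from a lower start. It turned to -0.027 with a pseudocount of 5 TPM, and on the TPM scale the difference was -110 TPM.

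**Figure D2:**
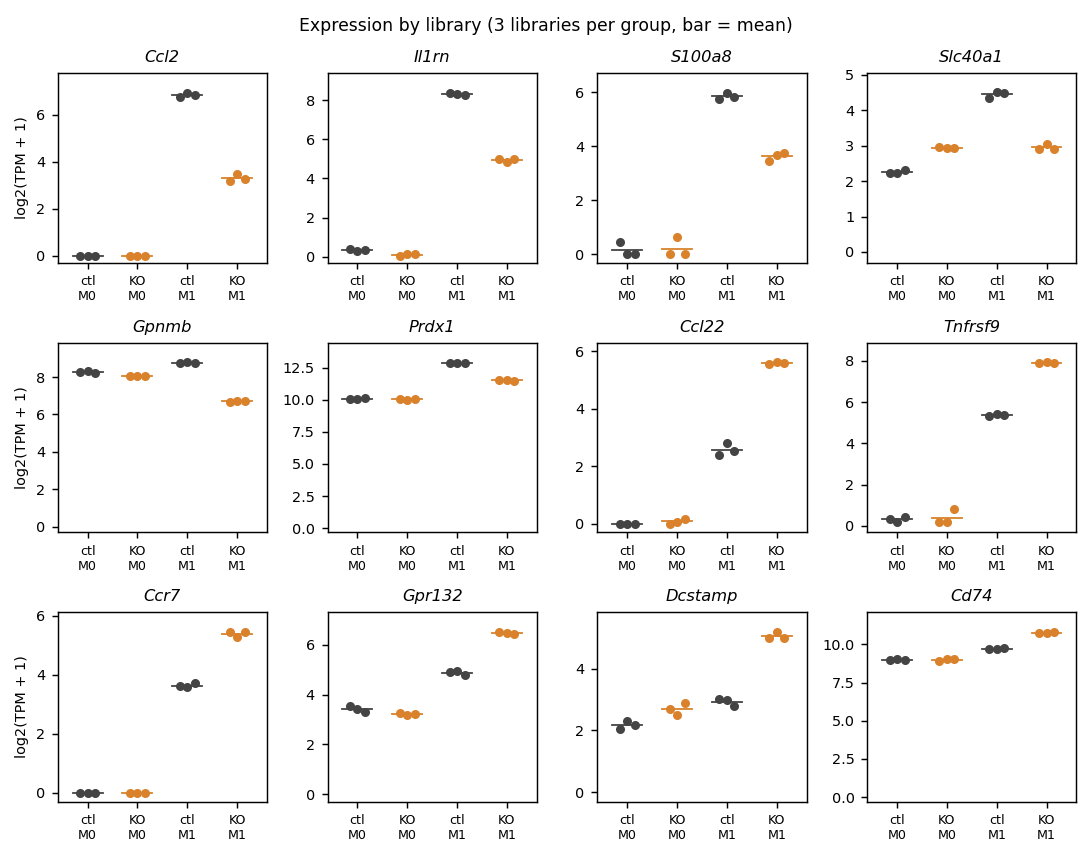
Each panel shows 1 gene in the 12 unstimulated and M1 libraries, on a log2(TPM + 1) axis, with dark points for control (ctl) and orange points for Kdm7a-deficient (KO) libraries and a bar at the mean of each group of 3. In Ccl2, Il1rn, S100a8, Slc40a1, Gpnmb and Prdx1 the KO M1 points lie below the control M1 points, and in Ccl22, Tnfrsf9, Ccr7, Gpr132, Dcstamp and Cd74 above them.

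Members of the costimulation and TNF receptor families moved both ways. Tnfrsf9, on chromosome 4 at 150920155 to 150946104, encodes CD137, a receptor of the TNF receptor family. It was at 0.25, 0.15 and 0.37 TPM in unstimulated control and 0.16, 0.14 and 0.75 TPM in unstimulated KO libraries, and under M1 at 39.4, 41.6 and 39.9 TPM in control cells and 236, 241 and 235 TPM in KO libraries. Every KO M1 library was above every control M1 library by several times, and the difference was 2.45 ± 0.19 (adjusted p = 1.54e-08). Slamf7 and Slamf8, receptors of the SLAM family, were lower at -0.91 and -1.21. Of 27 tested members of this list 11 were higher, among them Cd80, at 0.61, Cd83, at 0.63, and Icam1, at 0.40, and 8 were lower, among them Cd274, which encodes PD-L1, at -0.42. The median was 0.06, and with TMM factors 5 in place of 8 were lower.

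The MHC class II pathway, by which peptides of engulfed antigens are shown to T cells, differed between its members. Cd74, the invariant chain that holds class II molecules until they meet peptide, stood at 822, 830 and 860 TPM in control cells and 1687, 1682 and 1790 TPM in KO libraries under M1, and at 496 to 520 TPM and 473 to 523 TPM without stimulation. The unstimulated groups overlapped and the M1 groups did not, with a difference of 1.04 ± 0.06 (adjusted p = 8.78e-11). Ifi30, a reductase that opens disulfide bonds of antigens, fell with M1 to 133, 122 and 136 TPM in control but only to 234, 250.3 and 241 TPM in KO libraries (difference 0.90 ± 0.05, adjusted p = 2.52e-10). Of the class II chains, H2-Ab1, a beta chain, lay between 0.08 and 5.13 TPM and was lower at -1.17 ± 0.12, and H2-Aa and Ciita, the master regulator of the pathway, stayed under 1 TPM in all 12 libraries. Of 16 tested class II genes 3 were higher, 1 was lower and 12 were not called. Thus 25% were called, fewer than the 36% of all genes. Of 24 class I genes 7 were higher and 9 lower (66.7% called), with a median of -0.02 that became 0.03 with TMM factors.

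S100a8 and Stfa3, best known from myeloid cells and epithelia, rose in control cells and less in KO cells. S100a8, on chromosome 3 at 90669071 to 90670034, encodes a subunit of the metal-binding protein calprotectin. It was at 0.37, 0 and 0 TPM in unstimulated control and 0, 0.55 and 0 TPM in unstimulated KO libraries and reached 52.9, 62.0 and 55.7 TPM in control cells and 9.93, 11.6 and 12.6 TPM in KO libraries under M1. The M1 groups did not overlap, and the difference was -2.29 ± 0.27 (adjusted p = 7.56e-06), though this call was lost with a pseudocount of 0.1 TPM. Stfa3, a stefin that inhibits cysteine proteases, was listed at 0 in all unstimulated libraries and reached 18.9, 18.8 and 15.1 TPM in control cells and 1.17, 0.94 and 1.87 TPM in KO libraries (difference -3.01 ± 0.16, adjusted p = 8.66e-11). Of 8 neutrophil markers sought, 7 were in the table and S100a8 was the only one at 1 TPM or more, so their summed level, 53.3 to 62.2 TPM in control M1 and 10.2 to 13.0 TPM in KO M1 libraries, is almost that of S100a8. The defining neutrophil markers S100a9, Mpo, Elane and Ltf were at or near 0 in all 12 libraries.

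Iron-handling genes were called in 1 direction: of 17 tested members none was higher and 9 were lower, with a median of -0.37. Both counts were the same with TMM factors. All tested genes also tilted this way, with 12.1% higher and 23.9% lower. Slc40a1, on chromosome 1 at 45908070 to 45926532, encodes ferroportin, the only known exporter of iron from cells. It stood at 3.65, 3.70 and 3.98 TPM in unstimulated control and at 6.78, 6.69 and 6.64 TPM in unstimulated KO libraries. Under M1 it rose to 19.5, 21.7 and 21.5 TPM in control cells and was at 6.56, 7.34 and 6.44 TPM in KO libraries. KO libraries were the higher ones without stimulation and the lower ones under M1. The transcript rose by 2.19 in control cells and its response in KO cells was 0.01, so the difference was -2.18 ± 0.10 (adjusted p = 1.06e-11). Lcn2, which encodes the siderophore-binding protein lipocalin 2, reached 814, 873 and 877 TPM in control cells and 287, 299 and 298 TPM in KO libraries from values of 0 in 5 of the 6 unstimulated libraries (difference -1.69 ± 0.18, adjusted p = 6.38e-07, lost with a pseudocount of 0.1 TPM). Hamp, the hepcidin gene, chosen after its values were seen, was lower at -0.98 ± 0.13. Of the ferritin subunits, the light chain gene Ftl1 stood at 10874, 10775 and 11025 TPM in control cells and 7021, 7078 and 7245 TPM in KO M1 libraries (difference -0.71 ± 0.05, adjusted p = 7.94e-10). The heavy chain gene Fth1, the most abundant transcript under M1, had a difference of -0.02 ± 0.05 (adjusted p = 0.81).

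The NRF2 targets, a set of genes for antioxidant enzymes that NRF2 switches on under oxidative stress, showed the same direction in most members. Of 22 tested, none was higher and 16 were lower, with a median of -0.37 against -0.07 for all genes, and with TMM factors 2 were higher and 15 lower. Prdx1, on chromosome 4 at 116685599 to 116700000, encodes a peroxide-reducing enzyme. It stood at 1049, 1053 and 1100 TPM in control cells and 1048, 1024 and 1044 TPM in KO libraries without stimulation and at 7525, 7489 and 7238 TPM in control cells and 2881, 3005 and 2854 TPM in KO libraries under M1. The genotypes were close without stimulation and far apart under M1, with a difference of -1.31 ± 0.04 (adjusted p = 1.04e-13). Hmox1, the heme oxygenase gene, rose from 108, 110 and 105 TPM to 1931, 2005 and 2074 TPM in control cells and from 113, 121 and 123 TPM to 1138, 1148 and 1147 TPM in KO libraries (difference -0.95 ± 0.06, adjusted p = 5.51e-10). Gclm, the modifier subunit of the enzyme that starts glutathione synthesis, rose to 63.9, 68.8 and 71.1 TPM in control cells and stood at 39.0, 41.0 and 37.7 TPM in KO M1 libraries (difference -0.99 ± 0.08, adjusted p = 1.68e-08). The other lower members included Gclc, Txnrd1, Srxn1, Gsr, Cat and the pentose phosphate enzymes G6pdx and Pgd, between -0.33 and -0.63. Nfe2l2, which encodes NRF2 itself, was lower by little (-0.15 ± 0.05, adjusted p = 0.0372), and Keap1, its inhibitor, was not called. Compared within a condition, 7 of the 22 genes were higher (8.86% of all genes) and 5 lower (10.3%) in KO than in control cells without stimulation, and 4 were higher (16.9%) and 17 lower (33.4%) under M1.

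Lysosomal genes, whose products degrade engulfed material, gave 4 higher and 20 lower members of 31 tested, with a median of -0.33. With TMM factors 5 were higher and 19 lower. The shares of all tested genes were 12.1% higher and 23.9% lower. Ctsl, a cysteine protease gene, rose with M1 to 1072, 1073 and 1093 TPM in control cells and to 465, 474 and 467 TPM in KO libraries, from 213 to 221 TPM and 162 TPM (difference -0.78 ± 0.04, adjusted p = 3.48e-11). Gusb and Hexa, which encode glycosidases, fell with M1 in both genotypes and further in KO cells. Gusb reached 188 to 189.7 TPM in control cells and 100.1 to 106 TPM in KO libraries (difference -0.85 ± 0.04), and Hexa 109 to 111 TPM in control cells and 65.3 to 66.8 TPM in KO libraries (difference -0.80 ± 0.04). Genes that rose and genes that fell with M1 thus shared the direction of the difference. The higher members, Lamp2, Ctsc, Ctss and Tfeb, had differences of 0.15 to 0.28. Gpnmb, a membrane glycoprotein gene that is prominent in lipid-laden macrophages and lies on chromosome 6 at 49036518 to 49058182, moved in opposite directions in the 2 genotypes. It went from 313, 323 and 300.2 TPM to 431, 439 and 430 TPM in control libraries and from 266, 264 and 261 TPM to 101, 104 and 103 TPM in KO libraries. It rose by 0.47 in control cells and fell by 1.35 in KO cells, a difference of -1.82 ± 0.05 (adjusted p = 7.82e-15).

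Lists of growth and division genes, whose median fell with M1 in both genotypes, had more lower than higher members. So had all tested genes, with 12.1% higher and 23.9% lower. With TMM factors 1 ribosome biogenesis gene was higher and 19 were lower. The counts became 4 and 22 for G1/S and replication genes and 3 and 14 for mitotic genes. Of 26 ribosome biogenesis genes 1 was higher and 21 were lower, with a median of -0.35, and the median M1 response was -3.02 in control and -3.41 in KO cells. Nop56, part of a nucleolar RNA-modifying complex, fell from 372 ± 9.4 to 40.3 ± 0.76 TPM (mean ± SD, n = 3) in control and from 371 ± 7.6 to 27.5 ± 1.3 TPM in KO cells (difference -0.53 ± 0.06, adjusted p = 1.13e-06). The higher member was Myc, a growth-promoting transcription factor that is itself induced by M1, at 0.38 ± 0.11 (adjusted p = 0.0135). Of 37 genes of the G1/S transition and DNA replication 3 were higher, 23 lower and 11 not called, with a median of -0.38. Ccnd1, the cyclin D1 gene, fell to 136, 136 and 140 TPM in control cells and 79.3, 77.8 and 78.8 TPM in KO libraries (difference -0.82 ± 0.04), and Cdt1, which licenses replication origins, to 64.7 ± 0.77 and 30.7 ± 1.6 TPM (difference -1.21 ± 0.08, adjusted p = 8.13e-10). Of 29 mitotic genes 2 were higher, 15 lower and 12 not called, with a median of -0.24. Some of these were near the floor of the scale: Mcm2, part of the replication helicase, stood at 3.41 to 3.93 TPM in control cells and 1.41 to 1.91 TPM in KO M1 libraries, and Ccnb1, which drives entry into mitosis, at 2.88 ± 0.63 and 0.59 ± 0.36 TPM. Cdkn1a, which encodes the cell cycle inhibitor p21, was higher at 0.71 ± 0.06 (adjusted p = 4.79e-08), from 157 TPM against 224 TPM in unstimulated cells to 1951 TPM against 1693 TPM under M1.

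Lists of amino acid and energy metabolism were mixed, beside 12.1% higher and 23.9% lower among all tested genes. Phgdh, the first enzyme of serine synthesis, fell from 666 ± 14 to 77.6 ± 2.2 TPM in control cells and from 630 ± 36 to 36.2 ± 1.1 TPM in KO cells (difference -1.0 ± 0.05, adjusted p = 8.88e-11), and Shmt2, a mitochondrial enzyme of one-carbon metabolism, had the same difference of -1.0 ± 0.08. Asns, which makes asparagine, was lower at -0.64 ± 0.06. These 3 belong to a list of integrated stress response genes, of whose 21 tested members 5 were higher and 11 lower. Of 16 amino acid transporter genes 3 were higher and 9 lower, also with TMM factors, with a median of -0.28 as deposited. Of 26 genes of the citric acid cycle and itaconate 1 was higher and 12 were lower, with a median of -0.11. With TMM factors 2 were higher and 11 lower. Of 70 oxidative phosphorylation genes 9 were higher and 11 lower, and of 53 cytosolic ribosomal protein genes 4 were higher and 6 lower. Both medians were -0.01 and turned to 0.04 with TMM factors, under which 12 were higher and 4 lower, and 4 higher and 1 lower. The large sets of respiratory chain and ribosomal protein genes therefore gave no direction that held across scalings.

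**Figure D3:**
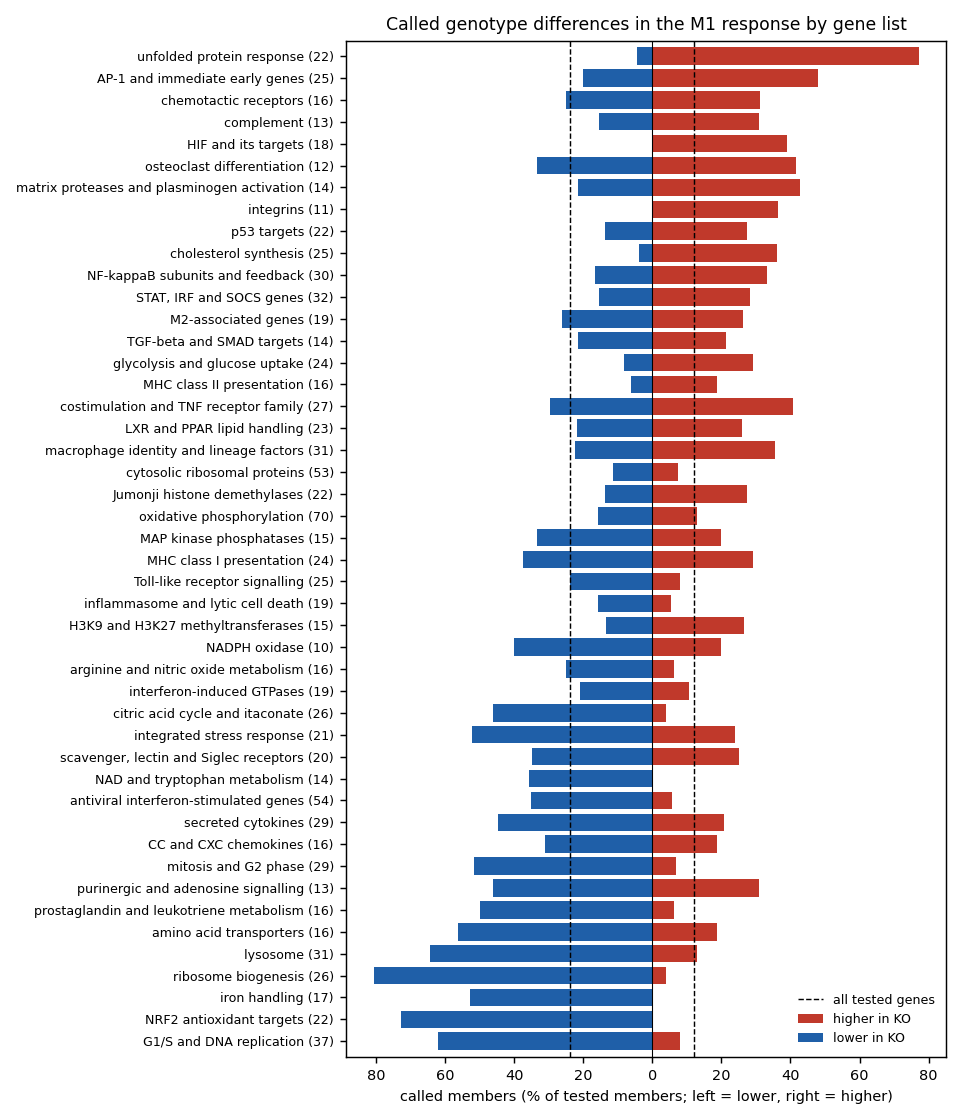
For each gene list with at least 10 tested members (number in brackets) the bars give the percentage of tested members called higher (red, to the right) and lower (blue, to the left) in the difference between responses, ordered by the median difference. The dashed lines mark the shares of all tested genes, 12.1% higher and 23.9% lower, and the longest bars are those of the unfolded protein response on the higher side and ribosome biogenesis and the NRF2 targets on the lower side.

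The unfolded protein response stood at the other end. This set of chaperones and degradation factors is switched on when proteins misfold in the endoplasmic reticulum. Of 22 tested members 17 were higher and 1 was lower, with a median of 0.39. Hspa5, the main chaperone of the endoplasmic reticulum, chosen after its values were seen, stood at 1757, 1779 and 1841 TPM in control cells and 1188, 1125 and 1190 TPM in KO libraries without stimulation. Under M1 the 3 control libraries were at 1571, 1503 and 1548 TPM and the KO libraries at 1555, 1522 and 1527 TPM. The groups were apart without stimulation and overlapped under M1, with a difference of 0.61 ± 0.05 (adjusted p = 2.28e-08). Pdia3, which forms disulfide bonds, went from 1166 ± 8.5 to 763 ± 11 TPM in control cells and from 839.7 ± 15 to 772 ± 6.2 TPM in KO cells (difference 0.49 ± 0.03), and Creld2, a secreted stress factor, from 224 ± 10.2 to 117 ± 1.3 TPM and from 139 ± 1.9 to 117 ± 6.5 TPM (difference 0.69 ± 0.05). Sdf2l1, a partner of Hspa5, and Sel1l, part of the machinery that removes misfolded proteins, had differences of 0.70 ± 0.04 and 0.71 ± 0.07. Of the 22 genes, 18 were lower in KO than in control cells without stimulation (10.3% of all genes). Under M1 7 were higher (16.9% of all genes) and 5 lower (33.4%), and the median gap between genotypes went from -0.40 to 0.01. In these genes the difference of responses thus rests on the unstimulated libraries, while in the NRF2 targets and ribosome biogenesis genes it rests on the M1 libraries.

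**Figure D4:**
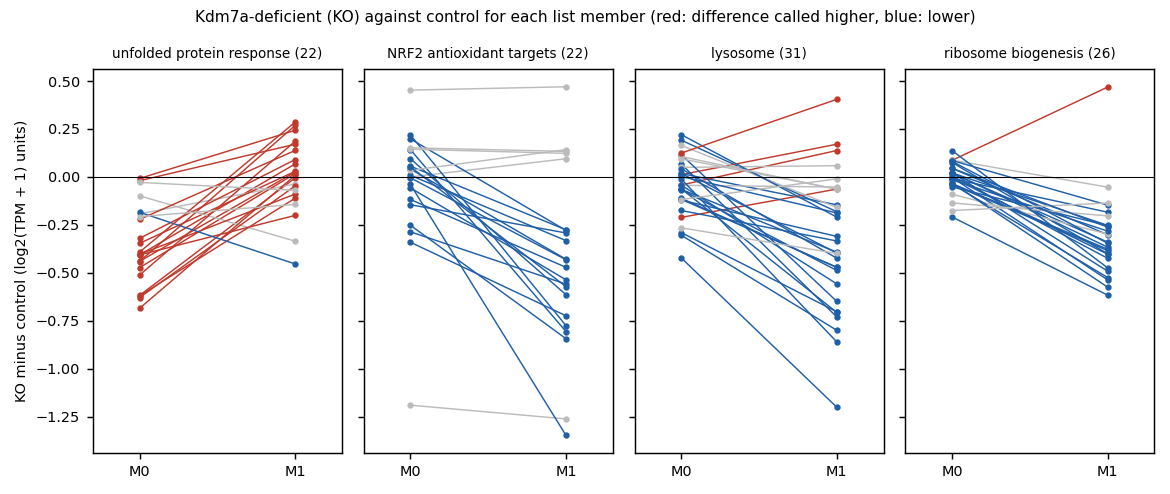
Each line joins 1 tested member of a gene list, from its KO minus control difference without stimulation (M0, left) to that under M1 (right), in log2(TPM + 1) units, in red where the difference between responses was called higher, in blue where lower and in grey where not called. Unfolded protein response genes start near a median of -0.40 and come together at 0.01, whereas NRF2 targets, lysosomal and ribosome biogenesis genes start near 0 and end at medians of -0.45, -0.33 and -0.34.

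Transcription factors of the immediate early class and targets of hypoxia signalling had more higher than lower members. Of 25 AP-1 and immediate early genes 12 were higher and 5 lower, with a median of 0.29. Fos, a subunit of AP-1, measured 13.0, 13.5 and 15.1 TPM in control cells and 7.53, 7.63 and 8.32 TPM in KO cells without stimulation. Under M1 the groups overlapped, at 13.9, 14.8 and 14.2 TPM and 13.5, 13.1 and 20.1 TPM (difference 0.84 ± 0.15, adjusted p = 2.34e-04). Egr1 was lower at -1.08 ± 0.13, with 34.8 ± 0.88 TPM in control cells and 26.0 ± 3.8 TPM in KO cells under M1. Of 18 HIF genes 7 were higher and none lower, with a median of 0.19. Compared within a condition, 12 of them were above control levels in KO cells without stimulation (8.86% of all genes) and 15 under M1 (16.9%). Adm, the gene of the vessel-widening peptide adrenomedullin, rose from 7.02 ± 1.5 to 91.5 ± 4.6 TPM in control cells and from 6.99 ± 2.0 to 174 ± 3.8 TPM in KO cells (difference 0.94 ± 0.22, adjusted p = 0.00355), and Vegfa to 349, 356 and 338 TPM and to 618, 606 and 611 TPM. Slc2a3, a glucose transporter gene, was higher at 1.21 ± 0.08, with 61.9, 61.5 and 57.9 TPM in control cells and 108, 111 and 113 TPM in KO libraries under M1. Of 24 glycolysis and glucose uptake genes 7 were higher and 2 lower.

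Lipid genes were split. Of 25 cholesterol synthesis genes 9 were higher and 1 was lower, with a median of 0.11. Idi1, which makes an isoprenoid building block, fell from 127 ± 6.9 to 19.9 ± 0.87 TPM in control cells and only from 125 ± 6.3 to 47.6 ± 1.2 TPM in KO cells (difference 1.24 ± 0.07, adjusted p = 8.78e-11). Lpl, the lipoprotein lipase gene, likewise fell less, to 25.1, 24.9 and 24.7 TPM in control cells and 55.1, 55.5 and 51.1 TPM in KO libraries (difference 1.44 ± 0.06, adjusted p = 4.14e-12). The fatty acid carriers Fabp4 and Fabp5 were lower, at -1.21 ± 0.23 and -1.09 ± 0.07. Of 16 genes of prostaglandin and leukotriene metabolism 1 was higher, 8 were lower and 7 were not called, and with TMM factors 2 were higher and 6 lower. Ptgir, the prostacyclin receptor gene, rose to 60.4, 59.9 and 62.1 TPM in control cells and stayed at 23.01, 25.8 and 24.9 TPM in KO libraries (difference -0.99 ± 0.07), and Ptgr1, a prostaglandin reductase gene, fell to 17.0 ± 0.62 and 4.55 ± 0.59 TPM (difference -1.28 ± 0.09).

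In the interferon branch the share of genes called in either direction was near that of all genes. Of 54 antiviral interferon-stimulated genes 3 were higher, 19 were lower and 32 were not called, with a median of -0.18. Thus 40.7% were called against 36% of all genes, of which 12.1% were higher and 23.9% lower. With TMM factors 4 of the antiviral genes were higher and 14 lower. Oasl1, an antiviral gene, stood at 1637, 1647 and 1632 TPM in control cells and 964, 944 and 1003 TPM in KO libraries under M1 (difference -0.72 ± 0.15, adjusted p = 0.0016). Parp14, an ADP-ribosyltransferase gene, was lower at -0.62 ± 0.10. Of 19 interferon-induced GTPase genes, which attack the vacuoles of pathogens, 2 were higher and 4 lower, Irgm1 at -0.46 ± 0.06 and Tgtp1 at 0.69 ± 0.13. The median M1 response of these GTPases was 6.94 in control and 6.74 in KO cells. Of 32 STAT, IRF and SOCS genes 9 were higher and 5 lower, and with TMM factors 15 and 5. Of 30 genes for NF-kappaB subunits and feedback 10 were higher and 5 lower, and with TMM factors 13 and 2. The upstream Toll-like receptor list held 2 higher and 6 lower of 25.

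Chromatin genes of the family of Kdm7a were examined too. Of 22 Jumonji demethylase genes 6 were higher and 3 lower, Kdm7a among the latter. Kdm5b, which removes methyl groups from lysine 4 of histone H3, measured 8.65, 8.28 and 8.46 TPM in control cells and 4.95, 4.99 and 5.96 TPM in KO libraries without stimulation and at 62.3, 63.9 and 62.1 TPM and 63.7, 62.4 and 62.4 TPM under M1 (difference 0.59 ± 0.10, adjusted p = 1.78e-04). Of 15 genes for methyltransferases of lysines 9 and 27 of histone H3 and their partners 4 were higher and 2 lower. Setdb1, a lysine 9 methyltransferase gene, stood at 65.4, 65.8 and 62.3 TPM in control cells and 104, 99.96 and 102 TPM in KO libraries under M1 (difference 0.51 ± 0.07), and Jarid2, a partner of the lysine 27 methyltransferase complex, at 24.6, 26.2 and 24.01 TPM and 39.6, 37.0 and 39.0 TPM (difference 0.60 ± 0.09).

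Other large differences concerned genes of varied function. Ghrh, the gene of growth hormone-releasing hormone on chromosome 2 at 157329496 to 157348725, was listed at 0 in all unstimulated libraries and reached 3.86, 6.23 and 2.87 TPM in control cells and 34.1, 41.5 and 34.8 TPM in KO libraries under M1 (difference 2.87 ± 0.21, adjusted p = 3.29e-09). Gpr132, a lipid- and acid-sensing receptor gene, stood at 29.1, 29.6 and 27.04 TPM and 91.4, 87.6 and 87.0 TPM under M1 (difference 1.81 ± 0.14), and Dcstamp, which is needed for macrophages to fuse into osteoclasts, at 7.16, 6.84 and 5.93 TPM and 30.4, 35.6 and 30.9 TPM (difference 1.60 ± 0.16, adjusted p = 4.03e-07). In these genes the KO M1 libraries were all above the control M1 libraries. Cytip, an adaptor that loosens adhesion of leukocytes, moved in opposite directions, from 8.76, 9.56 and 9.47 to 6.53, 7.12 and 6.29 TPM in control cells and from 7.19, 8.63 and 8.56 to 20.8, 20.1 and 21.0 TPM in KO libraries (difference 1.67 ± 0.09). On the lower side, the kinase gene Plk2 reached 10.4, 11.0 and 10.2 TPM in control but 0.25, 0.27 and 1.0 TPM in KO libraries (difference -2.85 ± 0.19), and Sgk1, a kinase gene induced by stress and glucocorticoids, reached 15.6, 14.7 and 13.8 TPM and 3.86, 3.0 and 3.8 TPM (difference -1.85 ± 0.13). Gstt3, Aplp1, Lims2 and Rgs16 were further genes with large positive and Tm4sf19 with large negative values, at 1.71, 1.91, 1.59, 1.5 and -1.83.

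For some genes the difference came from the unstimulated level rather than from M1. Qprt, an enzyme of NAD synthesis on chromosome 7 at 127107770 to 127122029, stood at 2.95, 4.42 and 2.68 TPM in control cells and 31.0, 28.7 and 25.8 TPM in KO libraries without stimulation and at 0.96, 0.73 and 0.87 TPM and 2.02, 1.69 and 2.53 TPM under M1. KO cells were above control cells in both conditions, and the difference of -2.05 ± 0.17 (adjusted p = 1.93e-08) describes a steeper fall from a higher start. Rhox5, a homeobox gene of the X chromosome, was at 73.6, 70.8 and 71.3 TPM in unstimulated and 20.0, 18.7 and 21.8 TPM in M1 control libraries and at 0 to 0.28 TPM in all KO libraries. Its difference of 1.68 ± 0.12 thus describes the fall in control cells, and it lost its call with a pseudocount of 0.1 TPM. Msr1, a scavenger receptor gene on chromosome 8 at 39543232 to 39642750, rose from 11.8, 12.1 and 13.4 to 796, 772 and 779 TPM in control cells and from 0.81, 1.31 and 1.21 to 413, 418 and 401 TPM in KO libraries. KO cells were below control cells in both conditions, its log2 difference was 1.74 ± 0.09 (adjusted p = 6.93e-11), and on the TPM scale the sign turned, to -361 TPM. Among called genes, 54 of the 1399 higher and 155 of the 2762 lower had the opposite sign on the TPM scale.

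The remaining lists mostly held members of both directions. They stand beside 36% of all tested genes called, with 12.1% higher and 23.9% lower. Of 31 macrophage identity genes 11 were higher and 7 lower, Axl, a receptor that recognises dying cells, at 0.82 and Trem2, a lipid-sensing receptor, at -0.81. Both of these turned sign under another scale, Axl with a pseudocount of 5 TPM and both in TPM. Of 20 scavenger and lectin receptor genes 5 were higher and 7 lower, and of 11 integrin genes 4 were higher and none lower (36.4% called). Of 13 complement genes 4 were higher and 2 lower, among the higher C3ar1, the receptor of the C3a fragment, which measured 11.2 ± 0.70 TPM in control cells and 5.43 ± 0.54 TPM in KO cells without stimulation and 461 TPM in both under M1 (difference 0.93 ± 0.10). Plau, the urokinase gene, led the lower members of the matrix protease list, at 36.6 ± 1.2 TPM in control and 11.4 ± 0.35 TPM in KO cells under M1 (difference -1.10 ± 0.06, adjusted p = 1.83e-10), and of those 14 genes 6 were higher and 3 lower.

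Of 12 osteoclast genes 5 were higher and 4 lower, and of 23 genes of lipid handling under LXR and PPAR control 6 were higher and 5 lower. Signalling lists were mixed too. Of 15 MAP kinase phosphatase genes 3 were higher and 5 lower, and Dusp6, which switches off ERK kinases, was lower, at 35.9 TPM in KO against 69.6 TPM in control cells under M1 (difference -1.04 ± 0.07, adjusted p = 3.29e-09). Of 13 purinergic genes 4 were higher and 6 lower, the ATP receptor gene P2rx7 being lower at -0.75. Of 14 NAD and tryptophan genes none was higher and 5 were lower, Kmo and Haao, enzymes of tryptophan breakdown, at -1.06 and -1.05. Like Qprt, both were above control levels in KO cells without stimulation, Kmo at 10.8 ± 0.65 against 4.27 ± 0.52 TPM and Haao at 5.72 ± 0.58 against 1.77 ± 0.35 TPM. Of 22 p53 targets 6 were higher and 3 lower, and of 14 TGF-beta genes 3 were higher and 3 lower. The inflammasome list held 1 higher and 3 lower of 19, the list of arginine and nitric oxide metabolism 1 and 4 of 16, the NADPH oxidase list 2 and 4 of 10, and M2-associated genes 5 and 5 of 19. Called members made up 21.1% of the inflammasome, 31.25% of the arginine and 35.7% of the NAD list, against 36% of all genes. They made up 60% of the NADPH oxidase and 52.6% of the M2-associated list. With TMM factors the balance of several lists moved towards higher members. It became 4 higher and 2 lower for the inflammasome, 2 and 3 for arginine and nitric oxide metabolism, 4 and 4 for MAP kinase phosphatases, 6 and 5 for scavenger and lectin receptors, 8 and 4 for LXR and PPAR genes and 13 and 5 for macrophage identity.

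The promoters of the largest differences with an entry in the RefSeq table of the GRCm38.p6 build are shown for the short motifs of the transcription factors that interferon gamma and LPS activate. Each window holds 250 bases before and 50 after a transcription start, on the strand of the gene. The motifs searched on both strands were TTCNNNGAA for STAT factors, GAAA with any 2 bases and another GAAA for interferon response elements, and GGG with any 2 bases and TTTCC or TTCCC for NF-kappaB. They occur in 8.3%, 3.44% and 3.24% of all 32851 windows of this length. Where a gene had several windows the one with most matches was taken. Ccl22 lies on the plus strand at chr8:94745434-94745733, Ghrh on the minus strand at chr2:157346606-157346905, Il1rn on the plus strand at chr2:24345041-24345340 and Stfa3 on the minus strand at chr16:36455343-36455642. Capitals mark the match of an NF-kappaB motif, which starts at base 280 of the Il1rn window, and the other 3 windows held none of the motifs.
Ccl22: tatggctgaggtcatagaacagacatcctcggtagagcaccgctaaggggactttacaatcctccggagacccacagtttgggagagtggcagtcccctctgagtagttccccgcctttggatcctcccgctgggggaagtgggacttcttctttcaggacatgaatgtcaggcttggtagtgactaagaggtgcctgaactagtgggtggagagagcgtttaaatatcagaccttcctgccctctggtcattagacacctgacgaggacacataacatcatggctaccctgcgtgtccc
Ghrh: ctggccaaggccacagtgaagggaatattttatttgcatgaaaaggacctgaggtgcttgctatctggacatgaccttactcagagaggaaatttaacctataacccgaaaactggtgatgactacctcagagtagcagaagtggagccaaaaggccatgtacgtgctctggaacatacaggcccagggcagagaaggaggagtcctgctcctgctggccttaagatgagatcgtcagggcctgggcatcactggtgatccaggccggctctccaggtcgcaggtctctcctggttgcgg
Il1rn: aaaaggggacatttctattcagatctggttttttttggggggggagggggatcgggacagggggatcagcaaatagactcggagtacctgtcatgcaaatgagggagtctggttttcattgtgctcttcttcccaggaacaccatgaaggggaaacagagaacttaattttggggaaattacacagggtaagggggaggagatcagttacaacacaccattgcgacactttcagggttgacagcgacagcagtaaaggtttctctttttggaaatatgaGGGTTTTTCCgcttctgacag
Stfa3: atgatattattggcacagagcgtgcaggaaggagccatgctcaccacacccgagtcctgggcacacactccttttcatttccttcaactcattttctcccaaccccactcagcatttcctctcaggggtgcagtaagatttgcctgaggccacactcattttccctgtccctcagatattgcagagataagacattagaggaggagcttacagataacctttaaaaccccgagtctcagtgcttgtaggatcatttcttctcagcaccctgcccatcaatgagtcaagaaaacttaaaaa

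A match describes these letters only, and no match says nothing about binding outside the window. Of the 14 largest higher genes 10 had a window, of which 2 held the STAT, 1 the interferon and 1 the NF-kappaB motif. Of the 14 largest lower genes 11 had one, of which 2, 2 and 1 held them. Counted per gene in the same way, the motifs occur in 9.55%, 3.99% and 3.73% of all genes with a window.

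The same contrast for M2 conditions was set beside that for M1. The M2 difference shares the unstimulated libraries with the M1 difference, so the direct test of 1 against the other compares only M1 and M2 libraries. The M2 difference was called for 1629 genes (14.1%), 815 higher (7.06%) and 814 lower (7.05%). The M1 difference was above the M2 difference in 1603 genes (13.9%) and below it in 2574 (22.3%). For the 28 genes with the largest M1 differences the values are a description, since their choice favours a gap to M2. Msr1, for which the gap was -0.22, was not called in this test (adjusted p = 0.0699). Ccl2 had differences of -3.55 in M1 and 0.24 in M2, Il1rn of -3.16 and 0.02, Ccl22 of 2.94 and -0.05 and Tnfrsf9 of 2.45 and -0.20. Hbegf had a difference of -1.77 in M1 and 1.51 in M2, a gap of -3.28 ± 0.14.

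Gene lists divided in the same test. Of the 22 NRF2 targets, 15 had an M1 difference below their M2 difference and none above it, and their M2 median was 0.07. Of 31 lysosomal genes 24 were below and 4 above, with an M2 median of 0.11, and of 26 ribosome biogenesis genes 17 were below and none above. For the 22 unfolded protein response genes 7 were above and 3 below, and the M2 difference itself was called higher in 17 of them with a median of 0.27. The antiviral interferon-stimulated genes had 12 members above and 6 below, and their M2 difference was called higher in 2 and lower in 27, with a median of -0.34. In these last lists many members thus differed between genotypes in the M2 contrast too. Among all tested genes 7.06% were higher and 7.05% lower in it. Both contrasts subtract the same unstimulated libraries, so the M2 calls are not a separate observation. In those libraries 18 of the 22 unfolded protein response genes were lower in KO than in control cells.

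**Figure D5:**
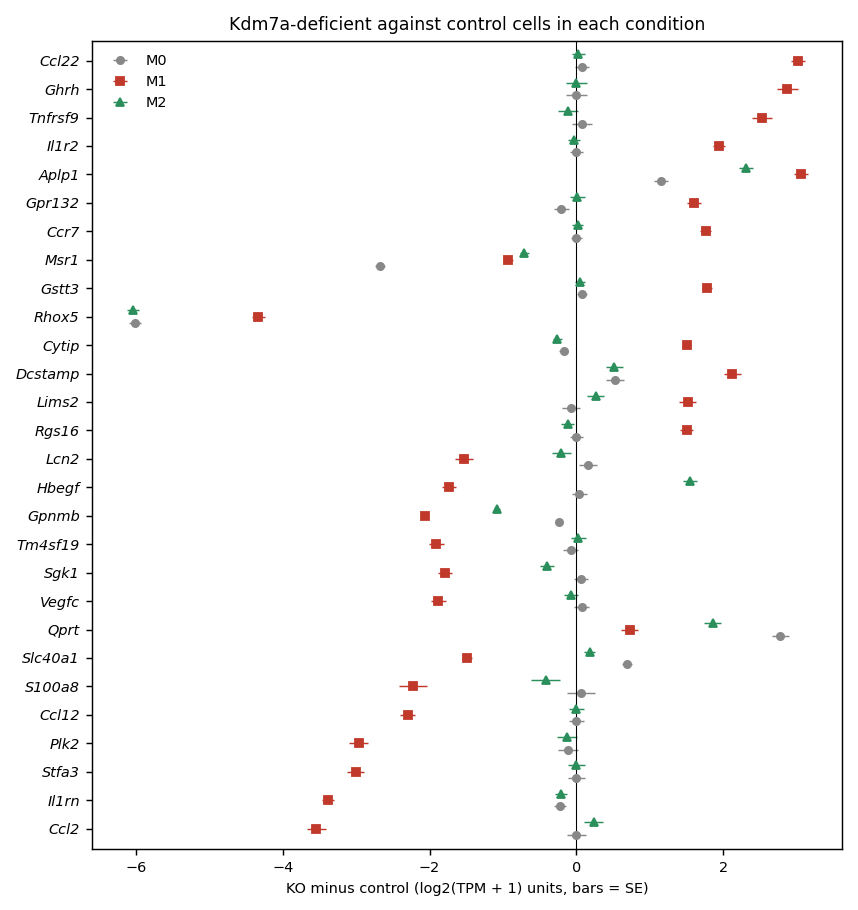
For the 14 genes with the largest positive and the 14 with the largest negative difference between responses, the KO minus control difference is shown in log2(TPM + 1) units without stimulation (grey circles), under M1 (red squares) and under M2 (green triangles), with bars for the SE. Ccl2 is at -3.55 under M1 and near 0 otherwise. Rhox5 at -6.01, Qprt at 2.78, Msr1 at -2.67, Aplp1 at 1.15, Slc40a1 at 0.69, Dcstamp at 0.53 and Gpnmb at -0.24 differ without stimulation. Of these, Rhox5 at -6.04, Aplp1 at 2.30, Qprt at 1.86 and Gpnmb at -1.08 are apart from 0 under M2 too. So are Msr1 at -0.71, Dcstamp at 0.51 and, among others, Hbegf at 1.55 and Sgk1 at -0.40.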

How the data were processed

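Poly(A) RNA of 18 libraries (6 groups of 3, groups from the sample titles) was sequenced after NEBNext Ultra II library preparation, per the labels' protocols. The authors deposited TPM per gene symbol. Per the submitters' processing notes, Trim Galore and mm10 were used. The aligner, quantification tool and annotation were not given in the sources used here. TPM are shares of a fixed total, so strongly induced genes lower the rest. Of 24411 symbols 23194 matched the RefSeq table. Genes reaching 1 TPM in 3 or more libraries were tested with limma 3.58.1 (trend, robust) in R 4.3.3, on log2(TPM + 1) with 6 group means. This understates changes of low genes. P-values were two-sided with Benjamini-Hochberg adjustment over all tested genes, threshold 0.05. The procedure was tested on simulated data. Alternatives were TMM or median-ratio factors, pseudocounts of 0.1 and 5 TPM, other filters, no trend, no robust step, a replicate block, only 12 libraries, each library left out, and differences in TPM (added after the data were seen). Named genes were Kdm7a, 6 M1 markers, the 14 largest called differences in each direction with a group mean of at least 5 TPM (unnamed models and copies left out), and up to 3 called members per list. Some results are not reported here. Other genes given as examples within a list were chosen after their values were seen. The contrast and lists were chosen with earlier results of these data known.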

Additional observations from a re-analysis of the deposited data

Results flagged for a closer look

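The test of the difference between genotypes was passed by 4161 genes, which are the subject of the text above. For 14 of the selected genes reported here, not all named above, the genotype differences in the M1 and M2 responses had opposite signs. Both differences were called, and so was their gap, which the opposite signs nearly fix and which therefore adds no support. The M1 minus M2 value was negative for the growth factor gene Hbegf (-3.28), the fatty acid carrier Fabp4 (-1.98), the heme oxygenase gene Hmox1 (-1.55), the prostacyclin receptor gene Ptgir (-1.30), the glutathione synthesis gene Gclm (-1.30), the lysosomal genes Ctsl (-1.17) and Gusb (-1.01), the nucleotide receptor gene P2ry6 (-1.0) and the caspase gene Casp1 (-0.65). It was positive for Gpr34 (1.52), the lectin receptor gene Clec12a (1.07), the vessel growth factor gene Vegfa (0.90), the integrin gene Itga4 (0.68, its M1 call being lost in 9 of 12 fits that left out a library) and the glucose transporter gene Slc2a6 (0.67).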

How the results depend on the processing

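The counts of called genes stayed within 1.5 times of 1399 and 2762 under all alternatives run. Leaving out 1 library in turn gave 1246 to 1338 higher and 2460 to 2644 lower genes, and the replicate block 1390 and 2751. Replicate numbers are not said to mark a shared culture or day. In their deviations from group means, same-numbered libraries correlated above 0.1 in 5 of 18 pairs, and differently numbered ones in 7 of 36. Between unstimulated and M1 KO libraries, same-numbered pairs stood at r = 0.18, 0.15 and 0.08 and differently numbered ones at -0.19 to 0.06. With 3 libraries per group these values cannot decide whether the numbers pair the libraries. In TPM in place of log2, the sign turned for Msr1 (-361), Cd86 (-110), Itga4 (-58.9), Itgb7 (-7.84), Axl (-2.86), Cp (4.66), Slc7a1 (5.39), Slc1a5 (19.8), Ccnb1 (20.7), Trem2 (27.8) and Socs3 (381). With a pseudocount of 5 TPM it turned for Cd86 (-0.027) and Axl (-0.037). The cause was not tested. With a pseudocount of 0.1 TPM, 12 of the selected genes lost their call: Kdm7a, Rhox5, S100a8, Lcn2, Il1b, Slamf7, Tgtp1, Naip5, Gpr34, Itga5, Serpinb2 and Fabp4. Naip5, Rpl14 and Rps23 lost it with other scaling factors. Of the 12 fits that left out a library, Itga5 lost its call in 11, Itga4 in 9 and Naip5 in 8, and no other selected gene lost its call in any. Il6 gained a call in a fit of only the 12 unstimulated and M1 libraries, at the same difference of -0.31. Depth is unknown for TPM, so no detection limit can be given for genes listed at 0.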
